A study of Mus musculus with 24 samples.

Results

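Genes of retinoic acid metabolism were followed in the mesenchyme of the mouse tooth germ. They are 9 of the 56748 genes counted, chosen by name for their part in taking up, making, binding, breaking down or answering retinoic acid: Stra6, Aldh1a1, Aldh1a2, Aldh1a3, Crabp1, Crabp2, Cyp26a1, Cyp26b1 and Rarb. These members, and the lists of other pathway genes below, were chosen with earlier results of these data known. Their counts beside the shares of all genes are therefore descriptions and not tests. The values were taken from bulk RNA sequencing of 24 libraries in 8 groups of 3, all from first mandibular molar tooth germs of ICR mouse embryos whose mesenchyme was freed of epithelium with dispase. The undivided mesenchyme was sequenced at the cap stage, E13 (Cap-W), and at the bell stage, E15 (Bell-W). Other tooth germs were cut with a fine needle into a lingual and a buccal part, which gave Cap-L and Cap-B from cap germs and Bell-L and Bell-B from bell germs. In the groups Cap-L+2D and Cap-B+2D, the parts of the cap stage were kept in vitro for 2 days, each without the other. The labels name no altered gene and no treatment other than the culture. The authors' methods describe the sequencing both as done in triplicate and as 2 biological replicates, and the labels do not settle this. The number of embryos in a library is not given in the sources used here. The p-values below therefore measure only the spread between libraries, which may be technical.

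Retinoic acid is made from vitamin A inside cells. Retinol enters through the membrane receptor STRA6, is oxidized to retinaldehyde by enzymes such as RDH10, and is returned to retinol by DHRS3. The ALDH1A enzymes turn retinaldehyde into retinoic acid in an irreversible step, CRABP proteins bind it in the cytoplasm, and CYP26 enzymes oxidize it to forms that are cleared. Where a source of ALDH1A adjoins a zone of CYP26, an uneven field of retinoic acid can arise, as is known from the hindbrain and the limb. Nuclear receptors of the RAR family, of which RARB is one, bind retinoic acid and switch on target genes, among them Cyp26a1 and Rarb itself.

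Library totals ran from 20581720 to 39266497 counted read pairs, and levels are given as normalized CPM, the counts scaled to a common depth of 1000000 and with edgeR's TMM method over all 24 libraries. A floor of 3 counts in a library corresponded to 0.0764 to 0.146 CPM and, like every interval below, covers counting error only. The 10 marker genes of dental mesenchyme, among them Pax9, Msx1 and Barx1, were above that floor in every group and summed to between 2220 and 4080 CPM. Replicates of the divided parts lay close together, with a mean chi-square per gene between 1.32 and 9.84 for pairs of replicates, against 7.89 to 161 for the undivided libraries. In bulk samples, fewer cells that express a gene and less RNA per cell cannot be told apart. Fold changes carry the standard error (SE) of edgeR's quasi-likelihood test. A gene was called at a Benjamini-Hochberg adjusted p under 0.05 with an absolute log2 fold change over 0.5, and every adjusted p below comes from that test over all genes. For a single gene, exact permutation of 3 libraries against 3 could reach no two-sided p under 0.1, so no such test was run.

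Breakdown genes, the main synthesis gene and a binding protein gene were lower in the buccal than in the lingual part of the cap stage, while an alternative synthesis gene and the uptake receptor gene were higher. Of the 8 members tested at the cap stage, 5 were called lower and 2 higher in Cap-B than in Cap-L, where 7.10% of all 20653 genes tested were called lower and 10.4% higher. At the bell stage 4 of 9 were lower and 1 was higher in Bell-B, against 6.88% and 6.00% of 21181 genes. After 2 days of culture 5 of 9 were lower and 0 higher in Cap-B+2D than in Cap-L+2D, against 12.5% in each direction of 21195 genes. For that count of 0 from edgeR, 0 members were higher at an unadjusted p under 0.05, and DESeq2 called as many members as edgeR, 5. Cyp26a1 and Cyp26b1 were lower in the buccal part in each of the 3 pairs of groups.

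**Figure D1:**
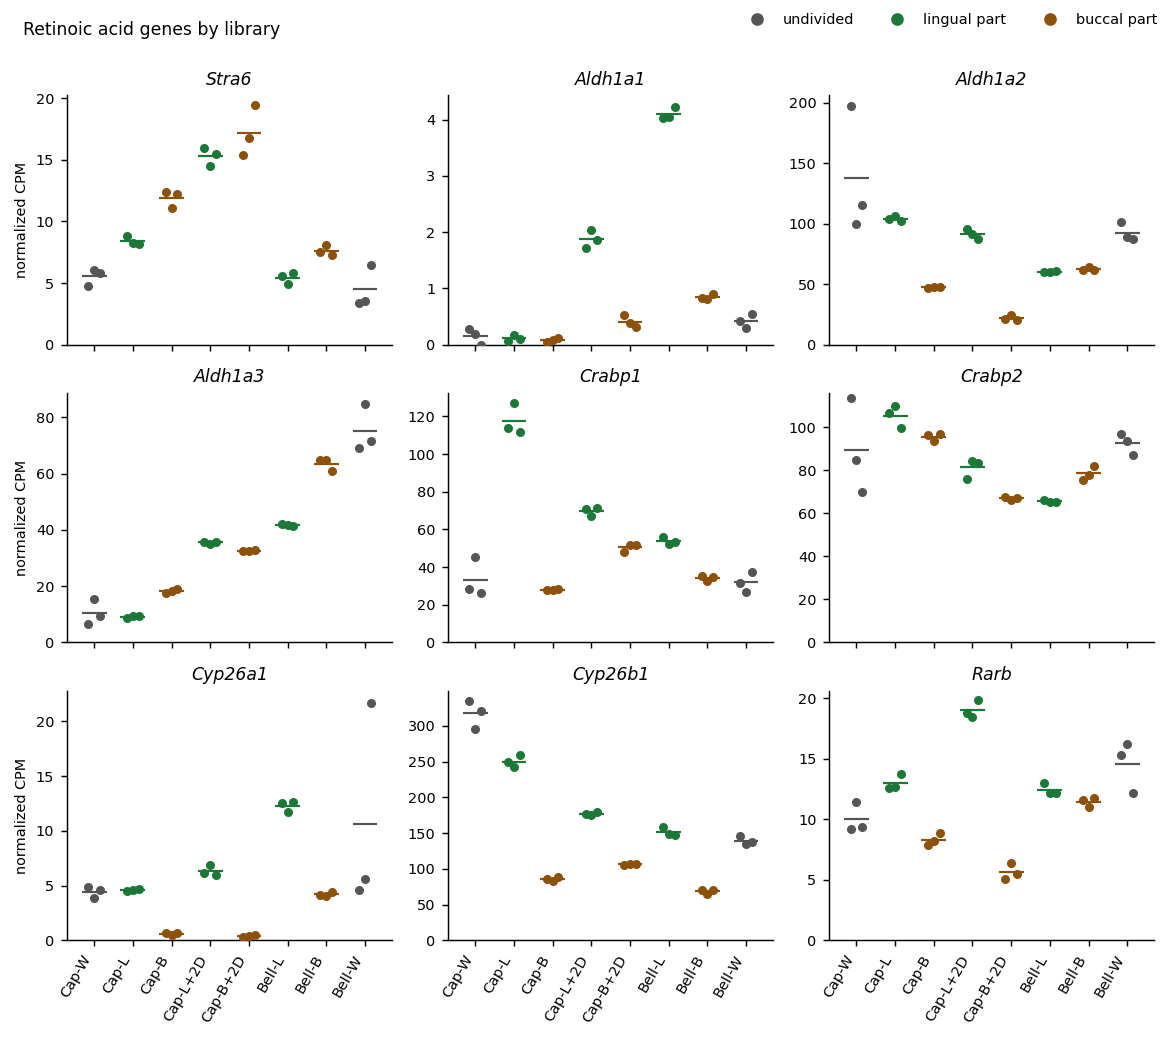
Normalized CPM (vertical axes, linear, from 0) of the 9 genes in each of the 24 libraries; points are libraries, short lines the mean of 3, and colours mark the undivided mesenchyme and its lingual and buccal parts. Cyp26b1 was higher in the lingual than in the buccal libraries of every pair, and replicate 3 of Bell-W lay apart for Cyp26a1, at 21.7 CPM.

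Stra6 (ENSMUSG00000032327, chromosome 9, 57971071 to 58061279 in GRCm39) codes for the membrane receptor that takes up retinol from its carrier in blood. It stood at 8.80, 8.26 and 8.16 CPM in Cap-L and at 12.4, 11.1 and 12.3 CPM in Cap-B. In Bell-L it was at 5.59, 4.89 and 5.85 CPM and in Bell-B at 7.48, 8.11 and 7.28 CPM. The buccal libraries lay above the lingual ones at both stages, and it was called at the cap stage (log2 fold change 0.53, SE 0.08, adjusted p = 3.89e-05) but not at the bell stage, where it missed the fold limit (0.48, SE 0.10, adjusted p = 8.5e-05). Without replicate 3 of Bell-L it was called there, at 0.54, and without replicate 3 of Bell-B at 0.51. Culture gave the highest levels of all groups, with 16.0, 14.5 and 15.5 CPM in Cap-L+2D and 15.4, 16.8 and 19.4 CPM in Cap-B+2D. The cultured sides overlapped. Stra6 fell from cap to bell in both parts (-0.62, SE 0.09 in the lingual and -0.66, SE 0.09 in the buccal part) and rose in culture (0.87, SE 0.08 and 0.51, SE 0.08), so that the cultured parts stood 2.82-fold above Bell-L and 2.26-fold above Bell-B. The buccal rise in culture was not called without replicate 2 of Cap-B (0.46) or without replicate 3 of Cap-B+2D (0.41).

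Aldh1a2 (ENSMUSG00000013584, chromosome 9, 71123071 to 71203525) codes for the retinaldehyde dehydrogenase that makes most of the retinoic acid of the early embryo. It measured 104, 106 and 102 CPM in Cap-L and 46.8, 47.95 and 47.2 CPM in Cap-B. The lingual libraries lay far above the buccal ones, with a log2 fold change of -1.11 (SE 0.04, adjusted p = 4.55e-13). At the bell stage the sides were level, at 60.2, 60.3 and 60.6 CPM in Bell-L and 61.8, 64.4 and 61.7 CPM in Bell-B (0.05, SE 0.04, adjusted p = 0.279). In culture the difference was wider than in the fresh cap parts, at 95.8, 91.6 and 87.6 CPM in Cap-L+2D against 21.5, 24.5 and 20.6 CPM in Cap-B+2D (-2.06, SE 0.06, adjusted p = 1.25e-20). Aldh1a2 fell from cap to bell in the lingual part (-0.78, SE 0.04), and in the buccal part it differed by 0.40 (SE 0.05), under the fold limit. In culture it fell in the buccal part (-1.12, SE 0.05) and differed by -0.18 (SE 0.04) in the lingual part. The level of Cap-B+2D was therefore 0.354 times that of Bell-B, while the level of Cap-L+2D was 1.52 times that of Bell-L.

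Aldh1a3 (ENSMUSG00000015134, chromosome 7, 66040638 to 66077265, minus strand), a second enzyme of the same step that is known from eye and nasal development, went the other way. Cap-L held 8.62, 9.41 and 9.43 CPM and Cap-B 17.6, 18.4 and 18.95 CPM, a log2 fold change of 1.02 (SE 0.07, adjusted p = 1.92e-09). Bell-L held 42.1, 41.9 and 41.5 CPM and Bell-B 64.7, 65.0 and 60.8 CPM (0.60, SE 0.04, adjusted p = 4.23e-16). It was the only one of the 9 genes called higher in the buccal part at both stages. The cultured sides were at 35.8, 35.0 and 35.8 CPM (Cap-L+2D) and 32.6, 32.4 and 32.8 CPM (Cap-B+2D), where the difference of -0.13 (SE 0.05, adjusted p = 0.0245) was under the fold limit. Aldh1a3 rose from cap to bell by 2.20 (SE 0.06) in the lingual and 1.78 (SE 0.05) in the buccal part, and in culture by 1.96 (SE 0.06) and 0.81 (SE 0.05).

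Aldh1a1 (ENSMUSG00000053279, chromosome 19, 20470079 to 20620829), the third enzyme, was at or near the floor at the cap stage, with 2, 6 and 3 counts in Cap-L and 1, 2 and 3 counts in Cap-B. It was not tested between these groups, where it failed the filter on low counts. Bell-L held 4.03, 4.05 and 4.22 CPM and Bell-B 0.820, 0.818 and 0.894 CPM, so that it was lower in the buccal part (-2.27, SE 0.17, adjusted p = 4.88e-15). The cultured parts showed the same direction, with 1.72, 2.04 and 1.85 CPM in Cap-L+2D and 0.522, 0.383 and 0.316 CPM in Cap-B+2D (-2.18, SE 0.23, adjusted p = 1.57e-08). From cap to bell the pooled counts rose from 11 to 344 in the lingual part, a ratio of 34.4 (95% counting interval 19.0 to 69.5), and from 6 to 75 in the buccal part, a ratio of 10.1 (4.43 to 28.4). In culture the ratios were 15.7 (8.56 to 32.1) and 4.95 (2.08 to 14.3). Aldh1a7, a close relative of Aldh1a1 in sequence, was also lower in Cap-B+2D than in Cap-L+2D (-3.86, SE 0.39). Read pairs that matched both places were left out of the counts, so the level of Aldh1a1 is uncertain to that extent.

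Per kilobase of exon, Aldh1a2 carried most of the ALDH1A transcripts at the cap stage and less of them later. Its share was 95.8% ± 0.229 (SD, n = 3) in Cap-L and 84.0% ± 0.488 (SD, n = 3) in Cap-B. At the bell stage it was 73.0% ± 0.154 (SD, n = 3) in Bell-L and 66.5% ± 0.662 (SD, n = 3) in Bell-B, with Aldh1a3 making up 24.8% and 33.1%. The lowest share was that of Cap-B+2D, at 57.7% ± 2.31 (SD, n = 3), against 83.4% ± 0.658 (SD, n = 3) in Cap-L+2D. Summed over the 3 enzymes, the level was 47.9 ± 0.944 (SD, n = 3) CPM per kb in Cap-L and 24.9 ± 0.361 (SD, n = 3) in Cap-B. At the bell stage it was 36.5 ± 0.0379 (SD, n = 3) in Bell-L and 41.6 ± 1.03 (SD, n = 3) in Bell-B, so the order of the sides was the opposite one. In culture it was 48.6 ± 1.79 (SD, n = 3) in Cap-L+2D and 16.9 ± 0.859 (SD, n = 3) in Cap-B+2D. Libraries of the 2 sides did not overlap in any of the 3 pairs, and no test was run on the sums.

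**Figure D2:**
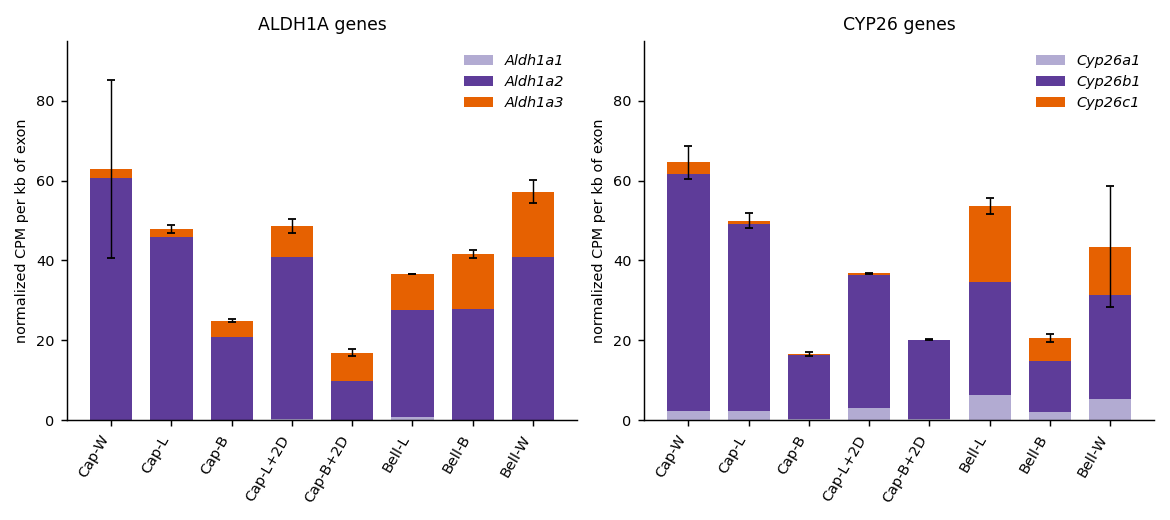
Mean level of the ALDH1A genes (left) and the CYP26 genes (right) in normalized CPM per kb of exon, stacked by gene for the 8 groups; error bars are the SD of the family's sum over 3 libraries. Cyp26c1 took 35.6% of the CYP26 sum in Bell-L against 1.92% in Cap-L, and Aldh1a3 took 41.8% of the ALDH1A sum in Cap-B+2D.

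Crabp1 (ENSMUSG00000032291, chromosome 9, 54672032 to 54680394), a cytoplasmic binding protein that is linked to the oxidation of retinoic acid, was highest in the lingual part of the cap stage. It stood at 114, 127 and 112 CPM in Cap-L and at 27.8, 27.95 and 28.4 CPM in Cap-B (-2.04, SE 0.06, adjusted p = 1.41e-15). At the bell stage the sides were nearer, with 55.7, 52.5 and 53.1 CPM in Bell-L and 35.3, 32.6 and 34.9 CPM in Bell-B (-0.65, SE 0.04, adjusted p = 7.29e-16). After culture they were nearer still, with 70.9, 67.2 and 71.5 CPM in Cap-L+2D and 48.1, 51.9 and 51.6 CPM in Cap-B+2D. The last difference, -0.48 (SE 0.05, adjusted p = 1.74e-09), was under the fold limit, and it passed it, at -0.50, without replicate 2 of Cap-L+2D. Crabp1 fell in the lingual part from cap to bell (-1.12, SE 0.05) and in culture (-0.75, SE 0.05). In the buccal part it rose in culture (0.83, SE 0.05) and differed by 0.28 (SE 0.05) from cap to bell, under the fold limit.

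Crabp2 (ENSMUSG00000004885, chromosome 3, 87855973 to 87860683), the relative that hands retinoic acid to its receptors in the nucleus, was the most even member. Its group means ran from 65.6 CPM in Bell-L to 105.5 CPM in Cap-L, a span of 1.61-fold, against 50.1-fold for Aldh1a1 and 30.3-fold for Cyp26a1. No side difference passed the fold limit, at -0.12 (SE 0.05) at the cap stage, 0.26 (SE 0.04) at the bell stage and -0.29 (SE 0.04) in culture. Crabp2 fell from cap to bell in the lingual part (-0.68, SE 0.05), where 107, 110 and 99.7 CPM in Cap-L stood against 66.3, 65.3 and 65.1 CPM in Bell-L. It fell in culture in the buccal part (-0.53, SE 0.04), from 96.2, 93.5 and 96.9 CPM to 67.7, 66.3 and 67.1 CPM.

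Cyp26b1 (ENSMUSG00000063415, chromosome 6, 84548396 to 84570890, minus strand), which breaks down retinoic acid and is known for its place in craniofacial and skeletal mesenchyme, was higher in the lingual part in every pair. It measured 249, 242 and 259 CPM in Cap-L and 86.4, 83.4 and 87.95 CPM in Cap-B (-1.52, SE 0.05, adjusted p = 9.05e-15). Bell-L held 158, 149 and 148 CPM and Bell-B 69.8, 64.8 and 70.1 CPM (-1.15, SE 0.04, adjusted p = 2e-27). In culture the levels were 177, 176 and 179 CPM in Cap-L+2D and 106, 106 and 107 CPM in Cap-B+2D (-0.74, SE 0.04, adjusted p = 4.29e-15). The lingual libraries lay above the buccal ones throughout, with no overlap. Cyp26b1 fell from cap to bell in the lingual part (-0.71, SE 0.04) and differed by -0.34 (SE 0.04) in the buccal part. The lingual change in culture, -0.49 (SE 0.04), sat at the fold limit and was called without replicate 1 of Cap-L (-0.50), without replicate 2 of Cap-L (-0.51) or without replicate 3 of Cap-L+2D (-0.50). The buccal change in culture was 0.29 (SE 0.04).

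Cyp26a1 (ENSMUSG00000024987, chromosome 19, 37686246 to 37689984), the relative that retinoic acid itself is known to induce, showed the widest side difference of the members tested at the cap stage and in culture. Cap-L held 4.51, 4.56 and 4.70 CPM and Cap-B 0.632, 0.460 and 0.623 CPM, the latter from 14, 11 and 16 counts (-2.97, SE 0.18, adjusted p = 1.37e-10). Bell-L held 12.6, 11.7 and 12.6 CPM and Bell-B 4.17, 4.06 and 4.37 CPM (-1.55, SE 0.09, adjusted p = 2.63e-18). In culture 6.12, 6.92 and 5.94 CPM in Cap-L+2D stood against 0.329, 0.383 and 0.506 CPM in Cap-B+2D (-3.96, SE 0.18, adjusted p = 5.89e-16). Cyp26a1 rose from cap to bell in both parts (1.43, SE 0.09 in the lingual and 2.86, SE 0.19 in the buccal part). In culture the lingual change of 0.47 (SE 0.10) was under the fold limit, or 0.51 and called without replicate 3 of Cap-L+2D, and the buccal change of -0.52 (SE 0.31, adjusted p = 0.142) was not called. Against the bell stage, the level of Cap-L+2D was 0.514 times that of Bell-L and the level of Cap-B+2D was 0.0968 times that of Bell-B.

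Cyp26c1, the third CYP26 gene and not one of the 9, was lower in the buccal part in all 3 pairs (-2.40, SE 0.30 at the cap stage, -1.74, SE 0.06 at the bell stage and -2.66, SE 0.36 in culture). From cap to bell it rose 19.9-fold in the lingual and 33.0-fold in the buccal part. The Cap-L libraries held 43 to 59 counts of it and the Cap-B libraries 4 to 9. In culture it fell instead, to 0.513 times the level of Cap-L and 0.428 times that of Cap-B, the latter with overlapping libraries and 2 to 7 counts each. Per kilobase, Cyp26b1 made up 93.5% ± 0.272 (SD, n = 3) of the CYP26 transcripts in Cap-L but 52.8% ± 1.40 (SD, n = 3) in Bell-L, where Cyp26c1 made up 35.6% ± 1.23 (SD, n = 3). The family's sum was 49.97 ± 1.81 (SD, n = 3) CPM per kb in Cap-L against 16.5 ± 0.467 (SD, n = 3) in Cap-B. At the bell stage it was 53.7 ± 2.06 (SD, n = 3) in Bell-L against 20.6 ± 0.944 (SD, n = 3) in Bell-B, and in culture 36.8 ± 0.134 (SD, n = 3) in Cap-L+2D against 20.2 ± 0.180 (SD, n = 3) in Cap-B+2D. The lingual sum of the bell stage was therefore close to that of the cap stage, while its makeup differed.

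Epithelial markers were lower in the buccal part in each of the 3 pairs, as Cyp26a1 and Cyp26c1 were. The 10 markers, Epcam, Cdh1 and Krt14 among them, were above the floor in every group although the mesenchyme had been separated. They summed to 425 to 471 CPM in Cap-L against 305 to 321 in Cap-B, to 704 to 734 in Bell-L against 513 to 532 in Bell-B, and to 317 to 345 in Cap-L+2D against 79.9 to 81.1 in Cap-B+2D. Cap-B and Cap-L+2D had similar sums, with mean levels of Cyp26a1 of 0.572 and 6.32 CPM. Cap-L+2D had a lower sum than Cap-L, whose mean level of Cyp26a1 was 4.59 CPM. Replicate 3 of Bell-W had the highest sum, 1840 CPM, and the highest level of Cyp26a1, 21.7 CPM. Skeletal muscle markers were higher in the buccal part in each of the 3 pairs. Their 10 genes summed to 22.3 to 23.4 CPM in Cap-L and 210 to 226 in Cap-B, to 128 to 139 in Bell-L and 859 to 884 in Bell-B, and to 313 to 331 in Cap-L+2D and 3550 to 3800 in Cap-B+2D, with Myf5 at or under the floor in Cap-L. Red blood cell markers stood at 20.1 to 28 CPM in the cultured groups and 1480 or more in the fresh ones. Bone markers were higher in the lingual part in each pair, at 963 to 983 CPM in Cap-L against 445 to 461 in Cap-B, 728 to 750 in Bell-L against 554 to 560 in Bell-B, and 2270 to 2310 in Cap-L+2D against 557 to 578 in Cap-B+2D. Cartilage markers had the same order of sides as Aldh1a2 at the cap stage and in culture, at 260 to 277 CPM in Cap-L against 125 to 129 in Cap-B and 243 to 269 in Cap-L+2D against 160 to 176 in Cap-B+2D, and were level at the bell stage, at 49.7 to 52.8 in Bell-L and 50.3 to 51.7 in Bell-B. The cartilage marker Matn1 was at or under the floor in all 6 of these groups. The part of these cells in the members' values was not tested.

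**Figure D3:**
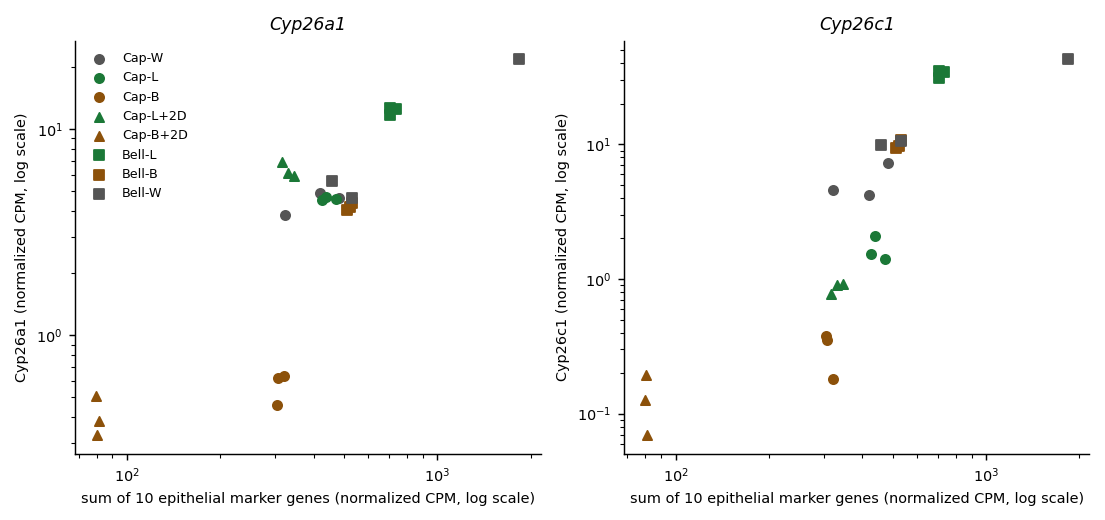
Level of Cyp26a1 (left) and Cyp26c1 (right) in each library against the summed level of 10 epithelial marker genes, all in normalized CPM on log scales; each point is 1 of 24 libraries. Replicate 3 of Bell-W sits at the upper right of both panels, with 1840 CPM of epithelial markers and 42.7 CPM of Cyp26c1, and the Cap-B+2D libraries at the lower left.

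Rarb (ENSMUSG00000017491, chromosome 14, 5650540 to 6038924), a nuclear receptor for retinoic acid and also one of its target genes, was lower in the buccal part at the cap stage and in culture. It stood at 12.6, 12.7 and 13.7 CPM in Cap-L and at 7.85, 8.20 and 8.83 CPM in Cap-B (-0.62, SE 0.08, adjusted p = 7.18e-06). At the bell stage, 13.0, 12.2 and 12.2 CPM in Bell-L and 11.6, 11.0 and 11.8 CPM in Bell-B differed by -0.12 (SE 0.07, adjusted p = 0.215). In culture, 18.8, 18.5 and 19.9 CPM in Cap-L+2D stood against 5.02, 6.37 and 5.44 CPM in Cap-B+2D (-1.78, SE 0.08, adjusted p = 1.31e-15). Over 2 days in vitro Rarb rose in the lingual part (0.56, SE 0.07) and fell in the buccal part (-0.60, SE 0.10). From cap to bell it differed by -0.05 (SE 0.07) in the lingual and 0.45 (SE 0.09) in the buccal part, the latter reaching 0.50 and a call without replicate 3 of Cap-B. Other genes, Gm48162 and Top2b, share 38.4% of Rarb's exon bases, and read pairs there were not counted.

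The response elements by which retinoic acid receptors are known to act on Cyp26a1 and Rarb are shown because of their profiles. These 2 genes had the most similar ones of all 36 pairs of members, with a Pearson r of 0.83. That r was taken over log2 of the 8 group mean CPM values plus 0.5. The means come from the same libraries, undivided ones included, and Cyp26a1 was near the added 0.5 in Cap-B (0.572 CPM) and Cap-B+2D (0.406 CPM). Over all pairs r ran down to -0.71, which Cyp26a1 had with Stra6 and Aldh1a1 with Crabp2. The element sought was a direct repeat of the half-site AGGTCA, the variant AGTTCA, the variant GGGTCA or the variant GGTTCA, in any pair, with 5 bases between, on either strand, from 300 bases before to 50 after each annotated transcript start (GRCm39, GENCODE release M39). The element sought is one already known at Cyp26a1 and Rarb, so their matches were fixed in advance and are no test. The shares of all genes only describe how often it occurs. Of the 9 members, Cyp26a1 and Rarb held it, against 0.349% of 21770 protein-coding genes. Counting only the canonical transcript of each gene, Cyp26a1 alone of the members held it, against 0.0827% of those genes, since the 5 Rarb transcripts with the repeat near their start are not canonical. Genes with more transcripts have more windows, and Rarb has 21 transcripts. The 120 bases before the start of the main Cyp26a1 transcript are given on the plus strand (chr19:37686121-37686240), with the repeat, which reads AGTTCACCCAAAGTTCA on the minus strand, in capitals. The stretch also holds exons of the noncoding gene Gm32342 on the other strand. For Rarb, 29 bases are given on the plus strand (chr14:5894228-5894256), with the repeat 41 to 57 bases before the start of transcript Rarb-202 in capitals. This stretch also overlaps exons of other Rarb transcripts.
Cyp26a1: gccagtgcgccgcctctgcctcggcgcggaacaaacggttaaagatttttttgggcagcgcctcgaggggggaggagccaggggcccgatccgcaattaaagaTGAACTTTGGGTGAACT
Rarb: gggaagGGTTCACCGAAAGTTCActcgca
A match describes these letters and not binding. For the other 7 members no such repeat lies in the windows searched, which does not bear on elements elsewhere.

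**Figure D4:**
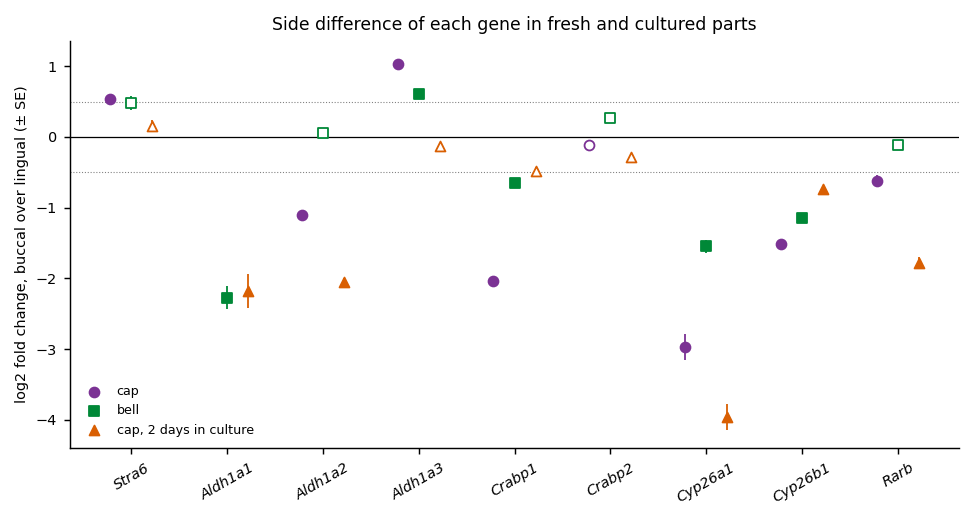
Log2 fold change of the buccal over the lingual part with its SE for each of the 9 genes at the cap stage, at the bell stage and after 2 days of culture; filled symbols were called, open ones were not, and dotted lines mark the fold limit of 0.5. Cyp26a1 lies lowest, at -3.96 in culture, Aldh1a3 highest, at 1.02 at the cap stage, and Aldh1a1 was not tested at the cap stage.

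Whether a side difference changed with stage was tested in 1 fit over the 12 libraries of the divided, uncultured parts. The interaction passed an adjusted p of 0.05 in 7 of the 9 members, where 32.5% of 21931 genes did. It was positive, the buccal part gaining on the lingual one toward the bell stage, for Cyp26a1 (1.42, SE 0.21), Crabp1 (1.39, SE 0.07), Aldh1a2 (1.16, SE 0.06), Rarb (0.49, SE 0.11), Crabp2 (0.38, SE 0.06) and Cyp26b1 (0.36, SE 0.06). For Aldh1a3 it was negative (-0.43, SE 0.08). In the joint fit of all 24 libraries the interaction did not pass for Cyp26a1 (1.44, adjusted p = 0.139), Crabp2 (0.40, adjusted p = 0.0812) and Aldh1a3 (-0.40, adjusted p = 0.29). Aldh1a1 (-1.81, SE 0.75, adjusted p = 0.0743) passed only without replicate 2 of Cap-L, at -2.20, and Stra6 (-0.05, SE 0.13, adjusted p = 0.793) did not pass. With culture in place of stage, the interaction over 12 libraries passed in 8 of 9 members, where 35.5% of 22098 genes did. It was positive for Crabp1 (1.57, SE 0.07) and Cyp26b1 (0.77, SE 0.06). It was negative, the buccal part losing against the lingual one in culture, for Rarb (-1.17, SE 0.12), Aldh1a3 (-1.16, SE 0.08), Cyp26a1 (-0.99, SE 0.32), Aldh1a2 (-0.95, SE 0.07), Stra6 (-0.37, SE 0.12) and Crabp2 (-0.17, SE 0.07, adjusted p = 0.0399). For 3 of these genes the call was lost when certain single libraries were left out. Cyp26a1 did not pass without replicate 1 of Cap-B (-0.93), replicate 3 of Cap-B (-0.92) or replicate 1 of Cap-B+2D (-0.84), Stra6 not without replicate 1 of Cap-B+2D (-0.29), and Crabp2 in 9 of the 12 fits that left out 1 library. In the joint fit Cyp26a1 (-0.96, adjusted p = 0.447), Stra6 (-0.34, adjusted p = 0.345) and Crabp2 (-0.14, adjusted p = 0.611) did not pass.

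In the lingual part, the bell stage and culture differed from Cap-L, the group both are compared with, in partly different members. From cap to bell 3 of 9 members were called higher and 5 lower, against 14.2% and 5.78% of 21425 genes, and in culture 4 were higher and 1 lower, against 19.6% and 15.9%. Set against Bell-L, Cap-L+2D was higher for 3 members (Stra6, Rarb and Aldh1a2) and lower for 2 (Aldh1a1 and Cyp26a1), where 14.4% and 16.8% of genes were called. The call of Aldh1a2 was lost when scaled by library totals only, at 0.49. In the buccal part 3 members were called higher and 1 lower from cap to bell, against 12.0% and 6.73% of 21992 genes, and 4 higher and 3 lower in culture, against 17.9% and 16.6%. Set against Bell-B, Cap-B+2D was higher for 3 members (Stra6, Cyp26b1 and Crabp1) and lower for 5 (Cyp26a1, Aldh1a2, Rarb, Aldh1a1 and Aldh1a3), where 15.5% and 16.3% of genes were called. The call of Crabp1 was lost under upper quartile scaling (0.50, just under the limit) and under library totals only (0.47). The log2 fold changes against Bell-B were -3.38 (SE 0.19) for Cyp26a1, -1.51 (SE 0.05) for Aldh1a2, -1.05 (SE 0.09) for Rarb, -1.03 (SE 0.28) for Aldh1a1 and -0.97 (SE 0.04) for Aldh1a3.

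**Figure D5:**
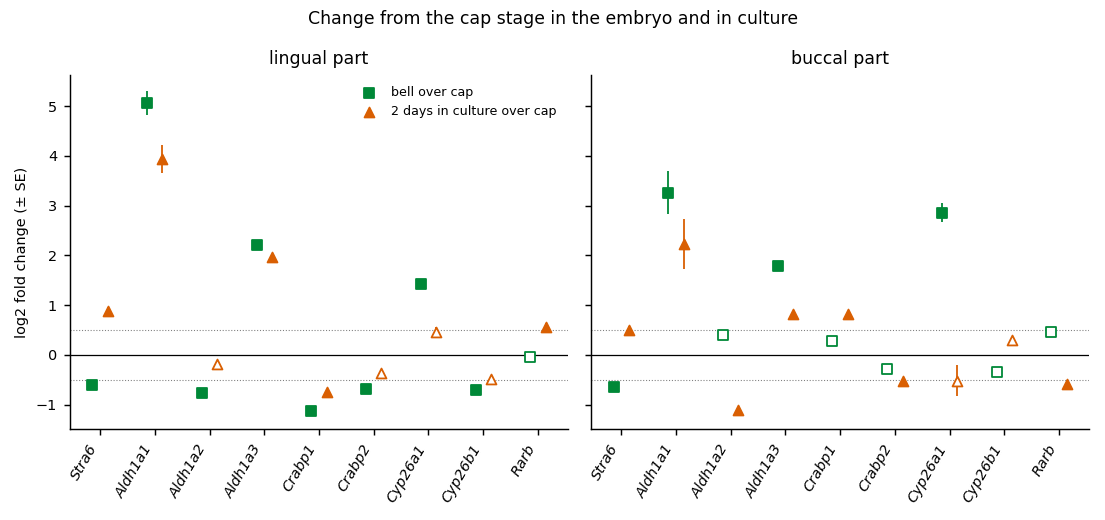
Log2 fold change with its SE against the cap stage of the same side, for the bell stage and for 2 days of culture, in the lingual (left) and buccal (right) part; filled symbols were called and dotted lines mark the fold limit of 0.5. Both changes are measured against the same cap libraries, and Cyp26a1 in the buccal part is at 2.86 for the bell stage and -0.52 in culture.

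In the undivided mesenchyme, 1 of the 8 members tested was called higher at the bell stage and 1 lower, against 10.3% and 4.21% of 20940 genes. Aldh1a3 rose from 6.45, 15.3 and 9.39 CPM in Cap-W to 69.2, 84.7 and 71.6 CPM in Bell-W (2.82, SE 0.30, adjusted p = 0.00119). Cyp26b1 fell from 336, 296 and 321 CPM to 146, 135 and 137 CPM (-1.20, SE 0.10, adjusted p = 0.000589). Aldh1a2, at -0.57 (SE 0.23, adjusted p = 0.147), ran from 99.8 to 197 CPM within Cap-W, and its value was -0.24 without replicate 1 of Cap-W. Cyp26a1 was at 4.61 and 5.57 CPM in replicates 1 and 2 of Bell-W and at 21.7 CPM in replicate 3, the library with 1840 CPM of epithelial markers against 460 to 532 in the other two, and its part in the value was not tested. Its log2 fold change was 1.26 (SE 0.57, adjusted p = 0.19) with that library and 0.18 without it. Rarb, at 0.52 (SE 0.18, adjusted p = 0.0869), was called without that library, at 0.63. Compared with the divided parts, Cap-W lay above both for 3 members, below both for 2 and between them for 4. Over all 23402 genes, 38.5% lay above both, 38.2% below both and 23.3% between. At the bell stage 4 members lay above both, 3 below both and 2 between, against 39.9%, 34.6% and 25.5% of all genes.

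The other genes of the pathway, 63 in 5 lists, were also split between the sides. At the cap stage 42 were tested, 7 were called higher and 6 lower in Cap-B, where 10.4% and 7.10% of all genes were, with a median log2 fold change of 0.09 against -0.01 over all genes. In the list headed breakdown, all 3 genes tested (Cyp26c1, Cyp1b1 and Cyp2s1) were lower in Cap-B (median -2.15) and in Cap-B+2D (median -1.58). Only Cyp26c1 of these is a CYP26 gene, so the list's name does not settle what the other genes do to retinoic acid. In Bell-B 1 of the 3, Cyp26c1, was lower, and the median was -0.07. The largest change was that of Nr2f1, a nuclear receptor gene known to respond to retinoic acid, which stood at 14.6 CPM in Cap-L and 144.5 CPM in Cap-B (3.33, SE 0.06). Rxrg, coding for a partner of the retinoic acid receptors, was also higher in Cap-B (2.16, SE 0.22). At the bell stage 6 of 46 were higher and 8 lower in Bell-B, against 6.00% and 6.88% of all genes, with a median of -0.02 against 0.00. In culture 9 of 46 were higher and 9 lower in Cap-B+2D, against 12.5% of all genes in each direction. Meis2, a homeobox gene known to respond to retinoic acid in the limb, was lower in Bell-B (-2.42, SE 0.06) and in culture (-2.88, SE 0.05). Rbp4, the blood carrier of retinol, was lower in Bell-B (-2.26, SE 0.10), as was the alcohol dehydrogenase gene Adh1 (-3.60, SE 0.55), with 0 to 2 counts in the Bell-B libraries. Rxrg was higher in Cap-B+2D (3.74, SE 0.11), a group whose skeletal muscle markers were also high, at 3550 to 3800 CPM, and their part in it was not tested. Of the genes listed as known to respond to retinoic acid, 4 of 12 tested were higher and 2 lower in Cap-B, against 10.4% and 7.10% of all genes. Their median was 0.40. In Bell-B 4 of 13 were higher and 3 lower, against 6.00% and 6.88%, with a median of 0.007. In Cap-B+2D 5 of 13 were higher and 3 lower, against 12.5% in each direction, with a median of 0.15. The list does not separate induced from repressed genes, so these values do not measure a response to retinoic acid.

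Rdh10 and Dhrs3, which make retinaldehyde and return it to retinol, had no side difference past the fold limit. Of the 18 listed retinol and retinal enzymes, 1 of 11 tested was called higher in the buccal part at the cap stage, against 10.4% of all genes. At the bell stage 3 of 14 were called lower, against 6.88% of all genes. In culture 1 of 14 was called higher and 1 lower, against 12.5% in each direction. Rdh10 had side differences of 0.34 (SE 0.05) at the cap stage, 0.30 (SE 0.05) at the bell stage and -0.23 (SE 0.04) in culture. It rose in culture from 36.4 to 76.7 CPM in the lingual part (1.09, SE 0.05) and from 45.2 to 65.6 CPM in the buccal part (0.52, SE 0.04). Dhrs3 had side differences of -0.09 (SE 0.08), 0.20 (SE 0.05) and -0.34 (SE 0.06). Dhrs3 rose from cap to bell in the lingual (1.11, SE 0.07), buccal (1.40, SE 0.06) and undivided mesenchyme (1.91, SE 0.20), and in culture in both parts (1.14, SE 0.07 and 0.89, SE 0.06).

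Across the stages and in culture the lists gave further named changes. From cap to bell 11 of 45 pathway genes were higher and 3 lower in the lingual part, against 14.2% and 5.78% of all genes, and 10 of 44 higher and 3 lower in the buccal part, against 12.0% and 6.73%. Rbp4 (2.11, SE 0.10) and Rarres2, a chemokine-like gene induced by retinoids in skin (2.04, SE 0.12), rose in the lingual part. Hoxd4 (2.78, SE 0.45) and Cyp1b1, a P450 gene that can also oxidize retinoids (2.12, SE 0.08), rose in the buccal part. In culture 15 of 45 were higher and 4 lower in the lingual part, against 19.6% and 15.9% of all genes, and 14 of 44 higher and 8 lower in the buccal part, against 17.9% and 16.6%. Adh7, an alcohol dehydrogenase that acts on retinol, rose in both (3.36, SE 0.17 and 3.12, SE 0.15), and Stra6l, a relative of Stra6, rose in the lingual part (2.77, SE 0.26). Aldh8a1, from the list of retinol and retinal enzymes, went there from 0.0749 to 0.557 CPM, with 0 to 4 counts in the Cap-L libraries. Hoxd4 (3.32, SE 0.41) and Cyp1b1 (3.19, SE 0.07) rose in the cultured buccal part. The Cap-B libraries held 1 to 4 counts of Hoxd4, a homeobox gene with a known retinoic acid response element, and Hoxd4 shares 52.3% of its exon bases with other genes, where read pairs were not counted. Against the bell stage, 13 of 45 were higher and 5 lower in Cap-L+2D, where 14.4% and 16.8% of all genes were, with Cyp1b1 (2.45, SE 0.05) among the higher and Cyp26c1 (-5.27, SE 0.12) among the lower. In Cap-B+2D 12 of 44 were higher and 8 lower, where 15.5% and 16.3% of all genes were, with Adh7 higher (3.16, SE 0.14) and Rarres2 (-2.22, SE 0.15) and Cyp26c1 (-6.18, SE 0.20) lower. In the undivided mesenchyme 7 of 44 were higher and 6 lower at the bell stage, against 10.3% and 4.21% of all genes, with Rbp4 (2.08, SE 0.40) and Rarres1 (2.31, SE 0.46) higher and Fgf8, a growth factor gene of early dental epithelium, lower (-4.81, SE 0.72), with 0 to 4 counts in the Bell-W libraries. The side by stage interaction passed in 18 of 46 pathway genes, against 32.5% of all genes, led by Cyp1b1 (2.07, SE 0.09), Lpl (-1.70, SE 0.08) and Adh7 (-1.56, SE 0.33). The side by culture interaction passed in 22 of 47, against 35.5% of all genes, led by Aldh1a7 (-2.94, SE 0.72), Rarres2 (-1.76, SE 0.23) and Tbx1 (1.70, SE 0.10).

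Ordered by group mean, the 9 genes had their highest levels in different groups. Crabp1 and Crabp2 were highest in Cap-L, Aldh1a2 and Cyp26b1 in Cap-W, Aldh1a1 and Cyp26a1 in Bell-L, Aldh1a3 in Bell-W, Rarb in Cap-L+2D and Stra6 in Cap-B+2D. At the cap stage, 38.5% of all genes lay above both parts in the undivided libraries and 38.2% below both. At the bell stage the shares were 39.9% and 34.6%. The ranks of Cap-W and Bell-W against the parts are therefore uncertain, as are the profiles below, which include them. For Cyp26b1 no neighbouring groups in that order overlapped in their libraries. For Crabp2 and Cyp26a1, 5 of the 7 neighbouring pairs overlapped, Bell-L and Bell-W of Cyp26a1 among them. Aldh1a1, Crabp1, Rarb and Stra6 each had 3 such overlaps, Aldh1a2 had 2 and Aldh1a3 had 1. The genes with the most similar profiles over the 8 group means were Rspo3 for Cyp26b1 (Pearson r of 0.98), Cntn3 for Cyp26a1 (0.979), Frzb for Aldh1a2 (0.971), Foxc1 for Stra6 (0.97), Celf5 for Aldh1a3 (0.965), Lama1 for Rarb (0.949), Prokr1 for Aldh1a1 (0.921), Htr7 for Crabp1 (0.886) and Aldoc for Crabp2 (0.784). Next came Enpep and Spock1 for Cyp26b1, Scara5 and Acp3 for Cyp26a1, Adamts18 and St6gal2 for Aldh1a2, Srf and Nav1 for Stra6, Kcnj8 and Papss2 for Aldh1a3, Abca4 and Chst2 for Rarb, Rgs7bp and Hpgds for Aldh1a1, Trpm3 and Trpm5 for Crabp1, and Inava and Wnt7b for Crabp2. These were the best of 2329 or 2330 candidate genes each, so high values are a description of 8 points and carry no test.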

How the data were processed

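Bulk RNA sequencing libraries of the divided, undivided and cultured mesenchyme were grouped by their titles, with 3 per group. The authors deposited 1 table of read-pair counts per gene, without normalization, made with featureCounts over the exons of an Ensembl annotation of GRCm39. Per the file headers, strand was ignored and pairs that matched several places or several genes were not counted, which lowers the counts of genes with close copies or overlapping neighbours. The aligner was not settled, since the sources differ, and so do the library kits they name. The submitters' processing notes list Trimmomatic 0.39, Bowtie 1.2.3 and Subread 2.0.3. Gene symbols were matched by identifier to GENCODE release M39 and named 56017 of 56748 genes.

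Counts were fitted in R 4.3.3 with edgeR 4.0.16 (TMM scaling, filterByExpr, quasi-likelihood test, Benjamini-Hochberg adjustment over all genes tested). Side differences and the undivided stages were fitted on their 6 libraries, changes within 1 side on the 9 libraries of that side, and interactions on 12 libraries, the latter without a fold limit. Levels are normalized CPM. Levels of different genes are compared only per kb of merged exon length. Group profiles for likeness used log2 of CPM plus 0.5, Pearson's r, and candidates with a mean log2 CPM of at least 2 and an SD of at least 0.5. The counting intervals for Aldh1a1 are exact and conditional on the pooled counts.

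Alternatives were RLE and upper quartile scaling, library totals only, the 100 most abundant genes left out, DESeq2 1.42.0, no low-count filter, a stricter filter requiring 10 counts in each library, a joint fit of all 24 libraries, a block for replicate number, and leaving out single libraries. The pipeline was tested on simulated counts. Depth ran from 20581720 to 39266497 counts per library. The genes named are all 9 members, Cyp26c1, Rdh10 and Dhrs3, up to 3 called genes of the pathway lists with the largest absolute log2 fold change per comparison, and the 3 most similar genes per member; Aldh1a7 and Hoxd4 are also named for their shared reads. The members and lists were chosen with earlier results of these data known.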

Additional observations from a re-analysis of the deposited data

Results flagged for a closer look

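The side difference of 7 members differed between the cap and bell stages, by the interaction test over 12 libraries, which 32.5% of all genes passed. The interaction, as the change in the log2 fold change of buccal over lingual from cap to bell, was 1.42 for Cyp26a1 (adjusted p = 4.1e-06), 1.39 for Crabp1 (adjusted p = 1.18e-15), 1.16 for Aldh1a2 (adjusted p = 2.49e-16), 0.49 for Rarb (adjusted p = 0.000512), 0.38 for Crabp2 (adjusted p = 1.18e-05), 0.36 for Cyp26b1 (adjusted p = 2.52e-05) and -0.43 for Aldh1a3 (adjusted p = 0.000112), all from edgeR's quasi-likelihood test.

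The side difference of 8 members differed between the fresh and the cultured cap parts, by a test that 35.5% of all genes passed. The interaction was 1.57 for Crabp1 (adjusted p = 9.66e-17), 0.77 for Cyp26b1 (adjusted p = 2.4e-12), -0.17 for Crabp2 (adjusted p = 0.0399), -0.37 for Stra6 (adjusted p = 0.0133), -0.95 for Aldh1a2 (adjusted p = 8.4e-12), -0.99 for Cyp26a1 (adjusted p = 0.0153), -1.16 for Aldh1a3 (adjusted p = 2.12e-12) and -1.17 for Rarb (adjusted p = 3.73e-09). For Aldh1a2, Crabp2, Cyp26a1 and Rarb the sign of the interaction with culture was opposite to that with stage, and both share the cap libraries. In the joint fit of all 24 libraries 4 members passed with stage, without Cyp26a1, Crabp2 and Aldh1a3. With culture 5 passed there, without Cyp26a1, Crabp2 and Stra6. Of 21 alternatives to the culture interaction, Crabp2 kept its call in 7, Cyp26a1 in 17 and Stra6 in 19.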

How the results depend on the processing

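Under the alternatives run, 0 called values of the members turned their direction, 1640 kept their side of the threshold, 33 lost a call and 17 gained one. Not among these, the filter of 10 counts in each library left Aldh1a1 untested, and 1 called member fewer, in the 6 comparisons of stage and culture within a side. The fit of all 24 libraries called 6 members in place of 2 between Bell-W and Cap-W, with 5887 genes called in place of 3037, adding Aldh1a2 (-0.57), Cyp26a1 (1.28), Rarb (0.53) and Aldh1a1, which was not tested in the smaller fit. For the interactions it called 4 members with stage and 5 with culture, with 2581 and 4048 genes passing in place of 7137 and 7842, and the cause was not tested. Leaving out each library in turn, the members called numbered 5 to 8 for the culture interaction, the lowest without Cap-B+2D replicate 1, and 2 to 3 for the undivided stages, where the genes called ranged from 1758 without Cap-W replicate 3 (1832 without Bell-W replicate 2) to 3057 without Cap-W replicate 1. Scaling by library totals only moved the median of all genes by -0.15 (log2) for Cap-L+2D over Cap-L and by -0.11 for Cap-L+2D over Bell-L. Under it, Cyp26b1 (-0.64) and Crabp2 (-0.52) were called lower in Cap-L+2D than in Cap-L and Rarb (0.41) was not called. It also called Stra6 between Bell-B and Bell-L (0.50) and lost it between Cap-B+2D and Cap-B (0.42), as did upper quartile scaling (0.47), which called Cyp26b1 between Cap-L+2D and Cap-L (-0.55). Without a filter on low counts Crabp2 was not called between Cap-B+2D and Cap-B (-0.50). DESeq2 called 7 of 9 members between Cap-B+2D and Bell-B in place of 8, since Aldh1a1 had an adjusted p of 0.0506. Same-numbered libraries deviated together with correlations from -0.08 to 0.09 over 23402 genes, which shows no pairing by replicate number. Deviations of close replicates hold much counting error, so this check cannot settle whether the numbers pair the libraries. Blocked by replicate number, the fits had 7 members that passed the stage interaction and 8 that passed the culture interaction, and in each other comparison as many members were called as without the block. Depth limits Aldh1a1 at the cap stage, with 0 to 6 counts per library, and Cyp26a1 and Cyp26c1 in the buccal cap parts.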
